A study of Mus musculus with 6 samples.

Results

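The genomic region described here is a 6.5 Mb stretch of mouse chromosome 7, chr7:67500000-74000000 on GRCm38, which holds the member genes Igf1r, Arrdc4, Nr2f2, Mctp2, Rgma and Chd2. Its members are all H3K4me3 peaks between these coordinates in 2 lymphoid progenitor lines: 37 of the 15513 peaks of the pro-T line and 16 of the 19604 peaks of the pre-B line. The stretch was chosen by the peak positions themselves, because pro-T peaks follow one another there without pre-B peaks between them. The difference between the lines in the number of peaks is therefore given as a description, without a test.

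H3K4me3 ChIP-seq, which enriches DNA wrapped around histone H3 trimethylated at lysine 4, had been performed with 2 ChIP libraries and 1 input library in each line. Scid.adh.2C2 is a T cell progenitor line, a subclone of a line that arose from a spontaneous thymic lymphoma of a mouse with the Prkdc scid mutation (CB17-Prkdc<scid>), and is called the pro-T line below. 230-238 is a B cell progenitor line transformed with the Abelson virus, and is called the pre-B line below; no strain is given for it. Each group is thus 1 transformed line in untreated culture, and a difference between the lines cannot be told apart from a difference between 2 individual cell lines, their strains or their transformation. The deposited peak list of each line combines its replicates, so each peak has 1 position and 1 fold enrichment over background. Replicate values and read depth are unknown, and no error can be given for a fold enrichment. A place without a peak is a place where no peak passed the thresholds of the authors, not a place shown to lack the mark.

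Checked against marker genes, both lines carried the promoter peaks of their lineage, with exceptions. A promoter is here the 2500 bp on either side of any annotated TSS of a gene, and it is called marked when a peak overlaps it by 1 bp or more. In the pro-T line 11 of 11 pro-T marker genes were marked, among them Gata3 at 39.9-fold and Bcl11b at 33.2-fold. Of these 11, the pre-B line marked 3, Cd3d at 16.8-fold, Tcf7 at 15.2-fold and Lck at 16.8-fold. In the pre-B line 8 of 9 pre-B marker genes were marked, among them Cd79a at 27.9-fold and Ebf1 at 26.1-fold, all but Rag1. In the pro-T line 2 of these 9 were, Vpreb1 at 29.9-fold and Rag1 at 16.5-fold. Rag1 stands in both marker lists. Over all protein-coding genes 45.5% were marked in the pro-T line and 48.2% in the pre-B line.

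H3K4me3 is laid down around active and poised start sites, most strongly at promoters rich in CpG dinucleotides, which recruit the methyltransferase complexes, and weaker peaks also lie at distal elements. Igf1r encodes the tyrosine kinase receptor of insulin-like growth factors, which passes growth and survival signals to the PI3K and AKT pathway. Nr2f2 encodes the orphan nuclear receptor COUP-TFII, known from vein, lymphatic and organ development rather than from lymphocytes. Chd2 encodes a chromodomain helicase that remodels nucleosomes at active genes. Arrdc4 belongs to the alpha-arrestins, adaptors for the uptake and ubiquitination of membrane proteins. Mctp2 encodes a membrane protein with several C2 domains, and Rgma a membrane-anchored guidance molecule that binds neogenin.

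Sequences are shown for the places the results turn on. The lines below give the plus strand of GRCm38 over 300 bp around the summit of 5 pro-T peaks that have no pre-B partner, from the Igf1r intron, the Fam169b promoter, the gene desert before Nr2f2, the Nr2f2 promoter and the region upstream of Mctp2. The gene desert was taken as the interval from Arrdc4 to Nr2f2 more than 100 kb from any protein-coding start, and the Mctp2 peak as one whose nearest protein-coding start is that of Mctp2. Within these limits the highest such peak was used, and Fam169b was added after its values were seen. The Fam169b and Nr2f2 windows lie at promoters as defined above, not at the starts of these genes. The Fam169b summit lay 0.667 kb downstream of the nearest Fam169b start and 0.0820 kb from the nearest start of Gm16157. The Nr2f2 summit lay in an Nr2f2 intron, 1.04 kb downstream of the nearest Nr2f2 start and 0.533 kb from that of B130024G19Rik. Capitals mark matches, on either strand, to any of 6 short motifs: CTTTGA for TCF7 and LEF1, AGATAA for the Gata factors, TGTGGT for the RUNX factors, AGGAAGT for the ETS factors, CAGCTG for E box proteins and CCCNNGGG for EBF1.
Igf1r intron, chr7:68129167-68129466: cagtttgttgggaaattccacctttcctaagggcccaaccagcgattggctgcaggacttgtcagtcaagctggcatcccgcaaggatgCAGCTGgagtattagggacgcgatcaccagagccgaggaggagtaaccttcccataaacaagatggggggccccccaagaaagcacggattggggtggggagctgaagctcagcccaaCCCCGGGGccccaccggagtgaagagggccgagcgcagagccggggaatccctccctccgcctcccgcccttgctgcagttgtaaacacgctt
Fam169b promoter, chr7:68276526-68276825: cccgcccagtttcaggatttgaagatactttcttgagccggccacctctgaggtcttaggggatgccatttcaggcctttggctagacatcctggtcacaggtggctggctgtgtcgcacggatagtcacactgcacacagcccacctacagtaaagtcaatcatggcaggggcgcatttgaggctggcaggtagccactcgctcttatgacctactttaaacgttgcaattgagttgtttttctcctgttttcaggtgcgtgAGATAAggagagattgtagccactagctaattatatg
Desert before Nr2f2, chr7:69987966-69988265: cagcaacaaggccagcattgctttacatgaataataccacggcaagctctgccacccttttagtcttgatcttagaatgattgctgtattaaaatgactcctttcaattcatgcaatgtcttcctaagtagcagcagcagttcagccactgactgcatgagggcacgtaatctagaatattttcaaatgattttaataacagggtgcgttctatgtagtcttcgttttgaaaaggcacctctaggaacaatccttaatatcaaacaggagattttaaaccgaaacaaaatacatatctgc
Nr2f2 promoter, chr7:70365542-70365841: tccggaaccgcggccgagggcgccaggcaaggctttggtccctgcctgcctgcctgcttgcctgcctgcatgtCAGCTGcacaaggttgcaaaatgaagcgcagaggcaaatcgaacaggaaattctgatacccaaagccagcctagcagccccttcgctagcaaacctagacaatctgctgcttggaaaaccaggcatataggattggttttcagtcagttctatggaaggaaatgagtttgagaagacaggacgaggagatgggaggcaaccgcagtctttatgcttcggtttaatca
Upstream of Mctp2, chr7:72369287-72369586: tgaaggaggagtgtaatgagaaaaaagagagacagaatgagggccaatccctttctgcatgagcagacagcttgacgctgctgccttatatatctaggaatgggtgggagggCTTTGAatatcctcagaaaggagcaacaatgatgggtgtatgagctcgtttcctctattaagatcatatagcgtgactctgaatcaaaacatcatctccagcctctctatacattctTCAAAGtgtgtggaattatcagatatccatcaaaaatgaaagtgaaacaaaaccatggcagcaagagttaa

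The 5 windows differed in base composition. The window in the Igf1r intron had a GC content of 60.7% and 14 CG dinucleotides, and that in the gene desert before Nr2f2 had 38.7% and 5. The Igf1r intron window held 1 E box match and 1 EBF1 match, the Nr2f2 promoter window 1 E box match, the Fam169b window 1 GATA match, and the window upstream of Mctp2 2 TCF7 and LEF1 matches. The desert window held no match to the 6 motifs.

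The sixth sequence is the promoter at which no peak was found in either line. It is given as the 250 bases before the RefSeq start of Igf1r on the plus strand (GRCm38.p6), with each CG dinucleotide in capitals.
Igf1r promoter, chr7:67952007-67952256: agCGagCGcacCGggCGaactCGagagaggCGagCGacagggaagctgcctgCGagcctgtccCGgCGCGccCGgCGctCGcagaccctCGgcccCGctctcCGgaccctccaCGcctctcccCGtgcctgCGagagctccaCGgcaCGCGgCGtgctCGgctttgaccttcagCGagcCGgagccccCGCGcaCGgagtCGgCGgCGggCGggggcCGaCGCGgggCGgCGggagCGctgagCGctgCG
These 250 bases hold 42 CG dinucleotides.

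The distribution of peaks over the stretch differed between the lines mainly in its central part. In the pro-T line the 37 peaks amounted to 5.69 peaks per Mb and covered 61.9 kb, and in the pre-B line the 16 peaks amounted to 2.46 peaks per Mb and covered 25.4 kb. Of the 37 pro-T peaks, 24 had no overlapping pre-B peak (64.9%, 95% Wilson interval 48.8% to 78.2%, which covers counting error only). Over the whole pro-T list 25.6% of the peaks had no pre-B partner. Of the 16 pre-B peaks, 2 had no pro-T partner (12.5%, interval 3.50% to 36.0%), against 39.3% of the whole pre-B list. These shares are what the stretch was chosen by and are given as a description. The intervals treat neighbouring peaks as independent, which was not shown, and they are not a test against the shares of the whole lists. When the peaks of both lines were joined where they overlapped, 38 regions resulted: 24 with pro-T peaks only, 2 with pre-B peaks only and 12 with both.

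**Figure D1:**
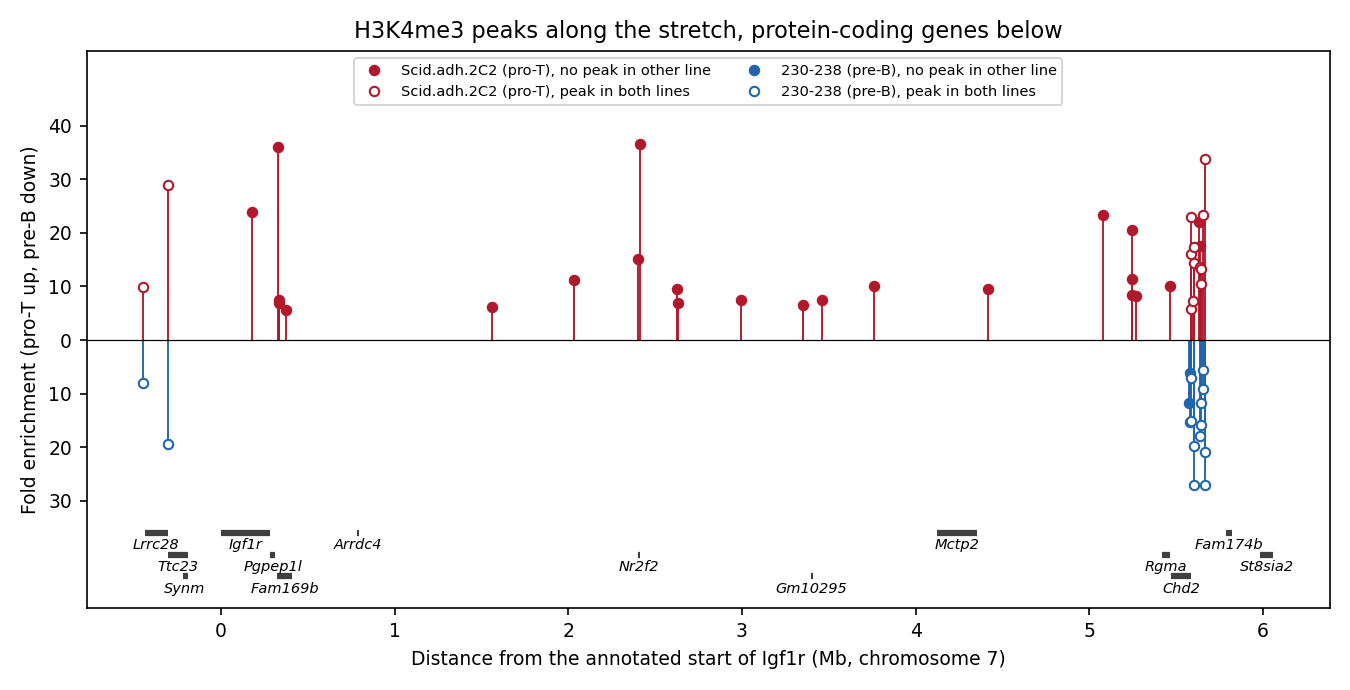
Fold enrichment over background of every H3K4me3 peak of the stretch (vertical axis, pro-T line upward, pre-B line downward) against the distance from the annotated start of Igf1r in Mb (horizontal axis). Filled points have no overlapping peak in the other line, open points have one, and grey bars are the 14 protein-coding genes; the 22 pro-T peaks in the middle have no pre-B peak opposite them.

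The pre-B line had no peak from chr7:67645331 to 73530243, an interval of 5.88 Mb. Among the 19583 intervals between neighbouring pre-B peaks on all chromosomes it was the 16th longest, and it ranked 2 by the number of pro-T peaks inside, with 22. The interval with the most, on chromosome 12 (chr12:106011839-108176288), was 2.16 Mb long and held 26. The 22 pro-T peaks lay between chr7:68128869 and 73422456, over 5.29 Mb. Of these, 4 were at promoters and 18 were distal, and 11 lay over 100 kb from the nearest start of a protein-coding gene. The median distance between neighbours was 163 kb, with a range from 0.0920 kb to 1187 kb.

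The pro-T line had long intervals without peaks of its own here. The longest within the stretch, 1.19 Mb from chr7:68323688 to 69510274, began in Fam169b and held Arrdc4. Another of 1.50 Mb began behind the last peak of the stretch and ran beyond its end. In that last interval both lines were without peaks over nearly the same length, since the pre-B line had none for 1.52 Mb from chr7:73619662. Just outside the borders, the nearest pro-T peak before the stretch had a fold enrichment of 7.32 and lay nearest to Mef2a, and the nearest after it had 10.4 and lay nearest to Sv2b. The nearest pre-B peaks outside, at chr7:67477718-67478886 and chr7:75141365-75142649, had 10.5 and 15.0 and lay nearest to Lrrc28 and Sv2b, and none of the 4 border peaks had a partner in the other line. Just inside, the outermost peaks were present in both lines.

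Igf1r (ENSMUSG00000005533, chr7:67952827-68233668, plus strand) had no promoter peak in either line. The nearest pro-T peak to its most upstream start was 176 kb away, and the nearest pre-B peak was 307 kb away. From the end of Ttc23 to the start of Pgpep1l, an interval that holds all of Igf1r and its flanks, the pro-T line had 1 peak and the pre-B line none. That peak, at chr7:68128869-68130151, was 1283 bp wide with a fold enrichment of 23.9, which ranked 6055 of 15513 in its list, and a −log10 p of 106. It lay in intron 2 of the 21-exon transcript Igf1r-201, an intron of 161 kb, and 19.3 kb from an internal annotated start of the gene. The stretch is thus named after a gene whose own promoter was unmarked in both lines and whose body held a single pro-T peak.

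Igf1r lies among protein-coding neighbours of unequal status. Upstream, the divergent neighbours Lrrc28 and Ttc23 were both marked by 1 peak, of 28.9-fold in the pro-T line and of 19.4-fold in the pre-B line. In each line it covered 4 of the 10 annotated starts of Lrrc28 and 0 of the 13 of Ttc23. Ttc23 counted as marked through the 2500 bp window, its most upstream start lying 1.12 kb from the pro-T peak and 2.08 kb from the pre-B peak. Synm, which encodes the intermediate filament protein synemin, had no promoter peak in either line. Downstream, Pgpep1l was unmarked in both lines, although its start lay 9.35 kb from the next pro-T peak.

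Fam169b (ENSMUSG00000074071, chr7:68273839-68363092, plus strand) carried the widest peak of the stretch. A pro-T peak at chr7:68273583-68281250 covered 7668 bp, with a fold enrichment of 36.0 and a −log10 p of 179. By width it ranked 14 of the 15513 pro-T peaks, and by fold 920. It covered 3 of the 5 annotated starts of Fam169b and both starts of the overlapping noncoding gene Gm16157. A further 3 pro-T peaks lay in the introns of Fam169b, with 6.93-fold, 7.42-fold and 5.68-fold enrichment, the last with an IDR score of 734, below the 1000 of most peaks. In the pre-B line no peak lay within 629 kb of the start of Fam169b.

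Arrdc4 (ENSMUSG00000042659, chr7:68736995-68749241, minus strand) was unmarked in both lines. Its start was 426 kb from the nearest pro-T peak and 1104 kb from the nearest pre-B peak. Between Arrdc4 and Nr2f2 lie 1603 kb without a protein-coding gene, with the summits of 3 pro-T peaks and no pre-B peak. The peak at chr7:69510275-69510879 had 6.23-fold enrichment and lay in an intron of the noncoding gene 4930402F11Rik. The peak at chr7:69987831-69988297, whose sequence is given above, had 11.2-fold enrichment and lay 367 kb from the nearest protein-coding start, that of Nr2f2.

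Nr2f2 (ENSMUSG00000030551, chr7:70351944-70366735, minus strand) carried the peak with the highest fold enrichment of the stretch. It lay in the pro-T line at chr7:70362584-70368332, 5749 bp wide, with a fold enrichment of 36.6 and a −log10 p of 183. It ranked 786 of 15513 by fold and 56 by width. The peak covered 1 of the 6 annotated starts of Nr2f2 and 2 of the 5 of B130024G19Rik, a noncoding gene, so that the reads under it cannot be assigned to one of them. The third pro-T peak with its summit in the interval before Nr2f2, at chr7:70350378-70352467, overlapped the 3′ end of the gene, and had 15.2-fold enrichment and a width of 2090 bp. The nearest pre-B peak was 2721 kb from the start of Nr2f2.

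**Figure D2:**
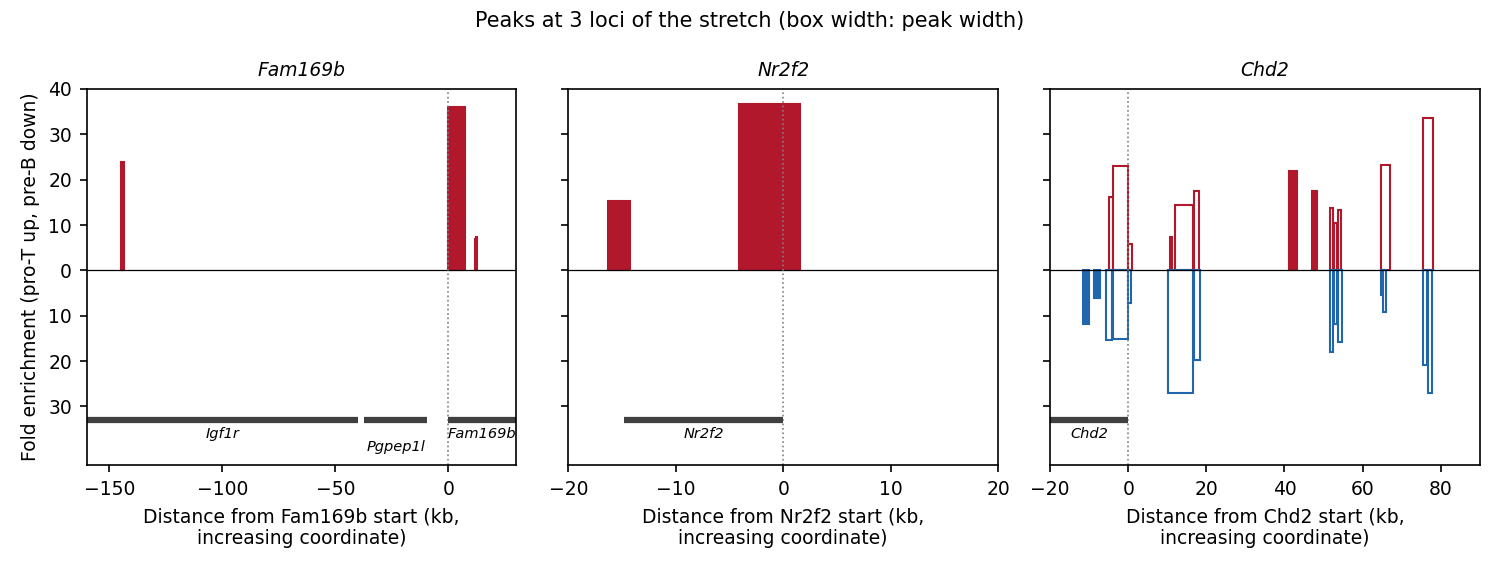
Peaks around Fam169b with Igf1r, Nr2f2 and Chd2, drawn as boxes with the width of the peak in kb from the most upstream annotated start (horizontal axis, in the direction of increasing coordinates) and its fold enrichment (vertical axis, pro-T upward in red, pre-B downward in blue). Filled boxes have no overlapping peak in the other line; the boxes at the Fam169b and Nr2f2 starts are 7668 bp and 5749 bp wide with nothing opposite, and most boxes at Chd2 are open.

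Beyond Nr2f2 the pro-T peaks were lower. Between Nr2f2 and Gm10295, a predicted protein-coding gene without a promoter peak in either line, 4 pro-T peaks had 6.46-fold to 9.50-fold enrichment. The highest of them, 1936 bp wide, lay at the promoter of the noncoding gene Gm44812, which was marked in the pro-T line only. Between Gm10295 and Mctp2 2 pro-T peaks of 7.46-fold and 10.1-fold were found. All 6 were distal to protein-coding genes, and no pre-B peak lay among them.

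Mctp2 (ENSMUSG00000032776, chr7:72077830-72306608, minus strand) was unmarked in both lines. The nearest pro-T peak, at chr7:72369010-72369626, lay 62.4 kb from the start of Mctp2 and upstream of it, with a fold enrichment of 9.55, while in the pre-B line the nearest was 1224 kb away. Between Mctp2 and Rgma, over 1069 kb, the pro-T line had 6 peaks and the pre-B line none. The highest of these, at chr7:73032006-73033465, had 23.3-fold enrichment and lay 343 kb from the start of Rgma, the largest value among the 11 peaks over 100 kb from a protein-coding start. A group of 3 peaks from chr7:73196427 to 73202727 had 11.4-fold, 8.31-fold and 20.5-fold enrichment.

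Rgma (ENSMUSG00000070509, chr7:73375509-73419899, plus strand) was also unmarked in both lines. Its start lay 45.4 kb from the nearest pro-T peak and 155 kb from the nearest pre-B peak. Its nearest pro-T peak, at chr7:73420862-73422456, was beyond its 3′ end, at the promoter of the noncoding gene Gm44645, with a fold enrichment of 10.1. This was the last of the 22 pro-T peaks without a pre-B peak between them.

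Chd2 (ENSMUSG00000078671, chr7:73426638-73541830, minus strand) was the only member gene with a marked promoter in both lines. In the pro-T line its promoter had 3 peaks of 16.1-fold, 23.0-fold and 5.80-fold enrichment, and in the pre-B line 3 peaks of 15.3-fold, 15.2-fold and 7.16-fold. The middle peak ran from chr7:73537980 to 73541767 in the pro-T line and from 73537987 to 73541768 in the pre-B line, so that its ends differed by 7 bp and 1 bp. Both pre-B peaks of the stretch without a pro-T partner lay in the introns of Chd2. The peak at chr7:73530244-73531694 had 11.8-fold enrichment and lay at the promoter of the noncoding gene C130083A15Rik, and the peak at chr7:73532997-73534518 had 6.13-fold enrichment and an IDR score of 573.

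Upstream of Chd2 lies the noncoding gene 1810026B05Rik, also named Chaserr, which is known to restrain Chd2 expression in cis. Its promoter carried 2 peaks in each line. The wide one was 4725 bp with 14.4-fold enrichment in the pro-T line, and 6378 bp with 27.0-fold in the pre-B line. By fold enrichment it stood within the top 64.8% of the pro-T peaks and the top 7.79% of the pre-B peaks, and by width within the top 1.28% and the top 0.704%. The narrower one had 17.4-fold enrichment in the pro-T line and 19.7-fold in the pre-B line. Fold values of the lines come from different libraries with unknown depth, and the difference between the ranks by fold could not be tested.

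The 198 kb between Chd2 and Fam174b held 11 pro-T peaks and 10 pre-B peaks. Of the pro-T peaks, 2 had no partner, at chr7:73582972-73584933 with 22.0-fold and at chr7:73588775-73590181 with 17.5-fold enrichment. They were followed by 3 distal peaks present in both lines, of 13.7-fold, 10.5-fold and 13.3-fold in the pro-T line and of 18.0-fold, 11.8-fold and 15.8-fold in the pre-B line. At the noncoding gene Gm44734 the pro-T line had 1 peak of 23.3-fold, and the pre-B line 2 of 5.54-fold and 9.15-fold. The last pro-T peak, at chr7:73617332-73619765, had 33.7-fold enrichment, in the top 9.79% of its list. Opposite it the pre-B line had peaks of 20.9-fold and 27.0-fold, the higher in the top 7.74% of its list. Fam174b and St8sia2, a polysialyltransferase gene, had no promoter peak in either line.

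In all, 2 of the 6 member genes were marked in the pro-T line and 1 in the pre-B line. Over all 14 protein-coding genes that overlap the stretch, 5 were marked in the pro-T line and 3 in the pre-B line, and 9 in neither. Across the genome 45.5% of 21951 protein-coding genes were marked in the pro-T line and 48.2% in the pre-B line. The pro-T line alone marked 2 of the 14, Fam169b and Nr2f2, and the pre-B line alone none, against 3.28% and 5.96% of all protein-coding genes. Of the other 110 annotated genes, 4 were marked in the pro-T line only, Gm16157, B130024G19Rik, Gm44812 and Gm44645, and 1 in the pre-B line only, C130083A15Rik. Over all 33499 such genes of the annotation these shares were 1.47% and 2.87%.

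Fam169b and Nr2f2 stood apart from the other pro-T peaks without a partner. Of the 22 peaks of the run, 12 had under 10-fold enrichment, 5 had 20-fold or more, and 12 were 1000 bp wide or less. The 2 wide promoter peaks made up 37.5% of the 35.8 kb that the run covered. The 20 distal pro-T peaks without a partner had a median fold enrichment of 8.93 and a median width of 864 bp, beside 8.27 and 746 bp over the 2322 such peaks of the whole list. With promoter and distal peaks pooled, peaks with a partner had lower medians here than over the whole lists. The 13 of the stretch had a median of 14.4-fold in the pro-T line, beside 23.8-fold over all 11549, and the 14 pre-B peaks 15.5-fold, beside 19.5-fold over all 11894. Taken apart, only the promoter peaks with a partner were lower here. Their medians were 17.4-fold beside 25.2-fold in the pro-T line and 15.2-fold beside 20.2-fold in the pre-B line. The 6 distal peaks with a partner in each line had higher medians here than over the whole list. In the pro-T line this was 11.9-fold beside 11.5-fold, and in the pre-B line the median of the stretch was 16.9-fold. These medians are descriptions over peaks of the same libraries, which are not replicates.

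**Figure D3:**
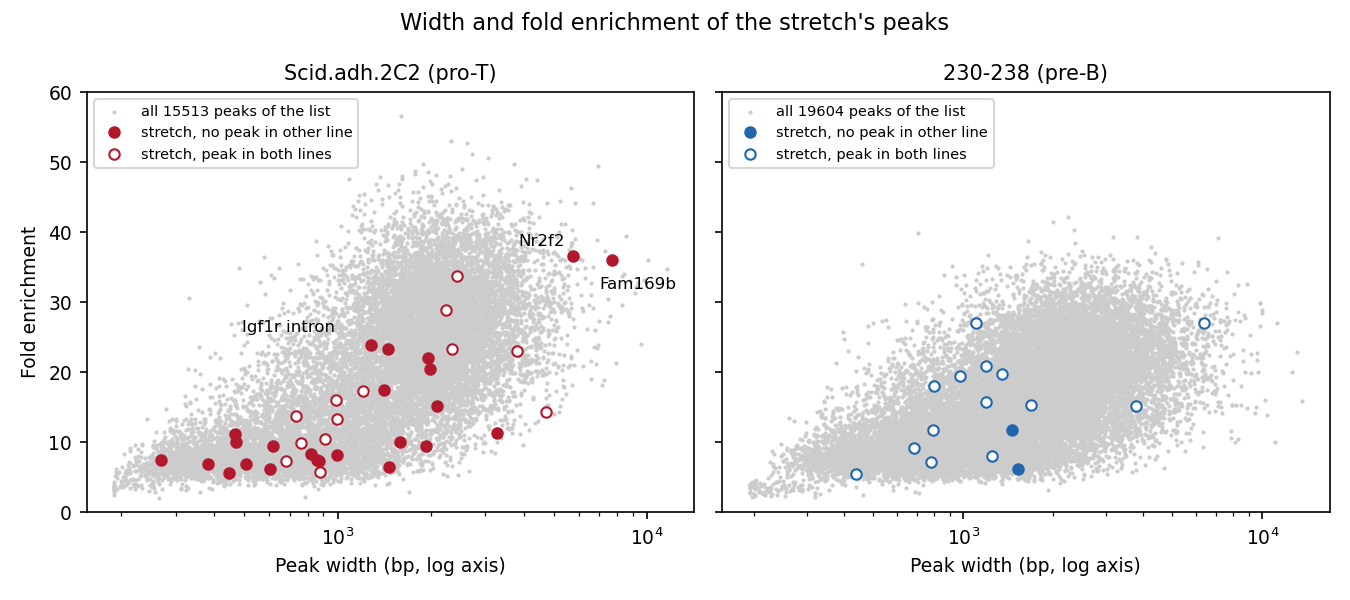
Fold enrichment against peak width in bp (log axis) for the peaks of the stretch, with the whole list of each line in grey. Filled points have no overlapping peak in the other line and open points have one; the Fam169b and Nr2f2 peaks lie at the upper right edge of the pro-T list, and most filled points lie under 25-fold within the grey cloud.

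Most of the CpG-rich promoters of the genes that overlap the stretch had no peak in either line. The ratio of observed to expected CpG dinucleotides was computed over 300 bp, from 250 bp before to 50 bp after the most upstream annotated start. Across the genome this ratio had a median of 0.77 at the 9258 protein-coding promoters marked in both lines and of 0.25 at the 10645 marked in neither. Igf1r, marked in neither, had 1.22, with 29 CG dinucleotides in the window. Rgma had 0.87, Synm 0.84, Fam174b 0.77 and Mctp2 0.72, and all were marked in neither line. Lrrc28, marked in both lines, had 0.84. Nr2f2, marked in the pro-T line, had 0.11, and Fam169b 0.00.

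Of the 14 protein-coding genes, 8 had a ratio of 0.6 or more at that start, and 7 of the 8 were unmarked in both lines. Among all 9730 protein-coding genes with such a ratio, 20.8% were. The 8 include St8sia2, whose most upstream start lies 13.7 kb beyond the end of the stretch, and without it 6 of 7 were unmarked. Of the unmarked genes, Synm, Igf1r, Pgpep1l, Mctp2 and Rgma start in the long interval without pre-B peaks. The stretch was chosen for pro-T peaks without pre-B peaks between them, so their pre-B status follows at least in part from that choice. The choice did not require these promoters to be unmarked in the pro-T line. However, most genes of the genome with such a ratio and no pre-B mark were also unmarked in the pro-T line. Of such genes 2022 were unmarked and 348 marked in the pro-T line. The 20.8% covers genes of any pre-B status, so it is not a background for a stretch chosen for missing pre-B peaks. The comparison with 20.8% is therefore a description, without a test. The genes with marked promoters were not all poor in CpG at every start. When the highest ratio over all annotated starts was taken, Chd2 reached 1.01 and Nr2f2 0.87, whereas Fam169b reached 0.50, and 7 of the 10 genes at 0.6 or more were unmarked in both lines (6 of 9 without St8sia2). At the RefSeq start of Igf1r, 570 bp upstream of the GENCODE start, the ratio over the 300 bp was 1.11 and the GC content 76.0%. RefSeq promoters were found for 4 of the 6 member genes, Igf1r, Arrdc4, Nr2f2 and Mctp2.

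**Figure D4:**
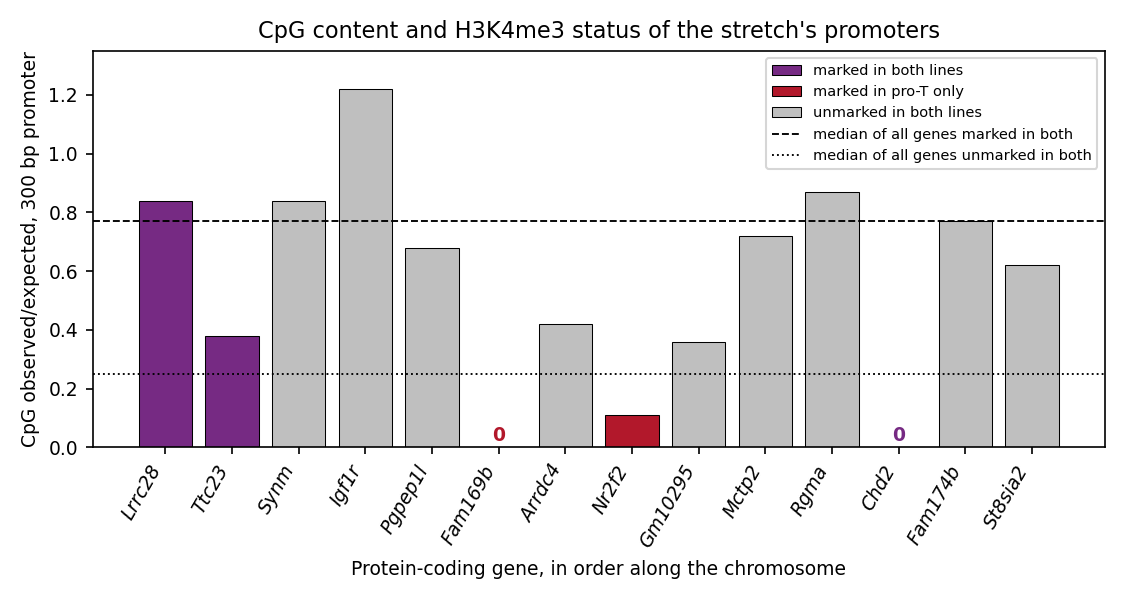
Ratio of observed to expected CpG in the 300 bp promoter window at the most upstream annotated start of the 14 protein-coding genes, in chromosomal order. Bar colour gives the H3K4me3 status, and the dashed and dotted lines are the medians of all protein-coding genes marked in both lines (0.77) and in neither (0.25). The grey bar of Igf1r is the highest at 1.22, and the ratio is 0 at Fam169b and Chd2.

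The sequences under the pro-T peaks without a partner were close to those of other such peaks in base composition. Over the 24 peaks of the stretch the median GC content was 46.0% and the median CpG ratio 0.29, beside 48.1% and 0.28 over the 3964 peaks of the whole list. Of the 22 peaks of the run, 1 had a CpG ratio of 0.6 or more. The motifs were searched on both strands in the 300 bp around each summit, and matches of different motifs were counted separately where they shared bases. The TCF7 and LEF1 motif CTTTGA was found in 6 of the 24 windows (25.0%), beside 19.5% of the windows of all pro-T peaks without a partner. The E box motif CAGCTG was also found in 6 (25.0%), beside 19.7%. The RUNX motif TGTGGT was found in 4 (16.7%), beside 24.1%, and the Gata motif AGATAA in 3 (12.5%), beside 15.7%. The ETS motif AGGAAGT and the EBF1 motif CCCNNGGG were found in 1 window each (4.17%), beside 8.96% and 10.2%. With 24 windows a single window changes a share by 4.17 percentage points, and a match is not a bound site.

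The rest of the IGF and insulin axis is given for context from a list of 27 genes, of which 12 were marked in the pro-T line and 15 in the pre-B line, beside the genome shares of 45.5% and 48.2%. Both lines marked 10 of them, among them the insulin receptor Insr at 34.0-fold in the pro-T and 24.3-fold in the pre-B line, and Pik3r1, the regulatory subunit of PI3K, at 42.0-fold and 29.3-fold. The pro-T line alone marked 2: Igf2r, the receptor that clears IGF2, at 17.9-fold and the PI3K catalytic subunit Pik3cb at 19.8-fold. The pre-B line alone marked 5, the ligand Igf1 at 22.0-fold, the adaptors Irs1 at 18.2-fold and Grb10 at 22.6-fold, the binding protein Igfbp4 at 16.1-fold and Insrr at 12.8-fold. Over all protein-coding genes 3.28% were marked in the pro-T line only and 5.96% in the pre-B line only. Igf1r was 1 of the 10 genes of the list marked in neither line, with Igf2, Irs2, Irs4 and 6 of the 7 Igfbp genes.

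**Figure D5:**
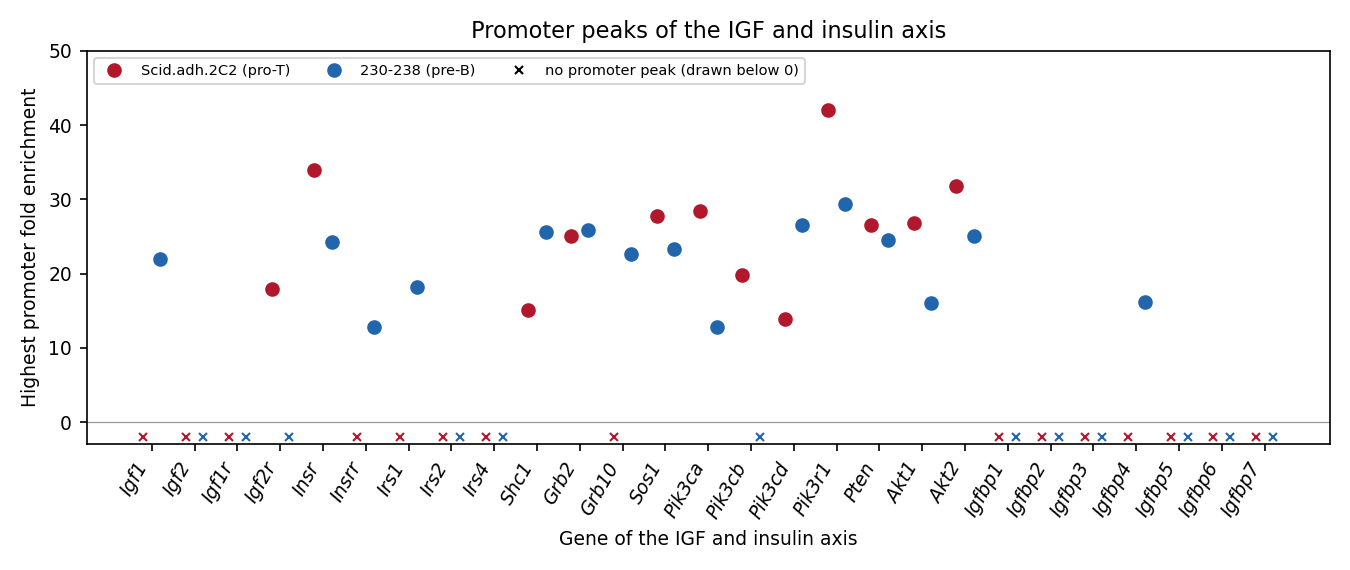
Highest fold enrichment of a promoter peak for each of the 27 genes of the IGF and insulin axis, in the pro-T line (red) and the pre-B line (blue), with crosses below 0 for promoters without a peak. Igf1r has crosses in both lines, whereas Insr has 34.0-fold and 24.3-fold.

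Relatives of the other member genes were marked unequally. Over all protein-coding genes, 42.2% were marked in both lines and 48.6% in neither. A further 3.28% were marked in the pro-T line only and 5.96% in the pre-B line only. Of the 6 alpha-arrestins, both lines marked the same 4, Arrdc1, Arrdc3, Arrdc5 and Txnip, and neither marked Arrdc4 or Arrdc2. Of the NR2F receptors, Nr2f6 was marked in both lines, at 18.4-fold in the pro-T and 22.9-fold in the pre-B line, and Nr2f1 in neither. Mctp1, Rgmb and the receptor gene Neo1 were marked in the pre-B line only, at 13.0-fold, 11.2-fold and 9.56-fold. Of the 9 CHD remodelers, 7 were marked in both lines, Chd7 in the pre-B line only at 20.4-fold, and Chd5 in neither.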

How the data were processed

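H3K4me3 peaks were compared between Scid.adh.2C2 and 230-238 cells. Per the submitters' processing notes and methods, the authors trimmed reads with Trim Galore 0.6.7, mapped them to mm10 (GRCm38) with Bowtie2 2.4.4, called narrow peaks with MACS2 2.2.7.1 against the input of the line and retained the optimal peak set of its replicates at an IDR threshold of 0.05. Each deposited list gives, per peak, its position, an IDR score, a fold enrichment ratio over background, and −log10 p and q-values, the latter not used here. Ranks were computed within a line. Read counts were not used here, so the depth is unknown and no test between the lines was made.

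Promoters were taken as 2500 bp on either side of every TSS of GENCODE M21 on GRCm38. Partners overlapped by at least 1 bp, and bases were read from GRCm38.p6. Coordinates are 1-based. The stretch, its member genes and the gene lists were chosen with earlier results of these data known. Named genes were the 6 members, all protein-coding genes of the stretch, its other genes marked in 1 line only, the nearest genes outside its borders, and list genes by count with examples; 2 genes of the lists are not reported here. A planned sequence of an Igf1r promoter peak was void, as no such peak was found. The functions for overlaps, promoters and runs were tested on simulated data. Alternatives were other peak thresholds, promoter windows, overlap rules and merging. The tools were pandas 2.3.3, numpy 2.4.6, scipy 1.17.1 (Wilson intervals), pysam 0.24.0 and matplotlib 3.10.9 under Python 3.11.15.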

Additional observations from a re-analysis of the deposited data

How the results depend on the processing

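Of 40 alternative values computed, 36 stayed within a fixed ratio of the main value and 4 moved. Some of the 36 could not move. Shortening the longer, pre-B list leaves the pro-T list as it was, so values from the pro-T list alone stay the same. With only peaks of at least 10-fold enrichment, the pro-T peaks without a pre-B partner fell from 24 to 13, the pre-B peaks without a pro-T partner from 2 to 1, and the longest run of pro-T-only regions from 22 to 10. With the longer list shortened to the length of the other, the pre-B peaks without a partner were again 1. These alternatives leave fewer peaks by their construction. Under the other alternatives the pro-T peaks without a partner numbered 21 to 27 and the longest run 19 to 22. The member genes marked were 2 in the pro-T and 1 in the pre-B line under every alternative tried, which included promoter windows of 1000 bp and 5000 bp, the summit in the window and 1 start per gene. No paired analysis was possible because the lists carry no replicate numbers and no test was made. For the same reason no replicate could be left out. What the unknown depth limits is the reading of a missing peak, which may lie below the threshold of either list.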
